A study of Mus musculus with 8 samples.

Results

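Imprinted genes are expressed mainly from the copy inherited from 1 parent. The 9 described here are H19, Cdkn1c, Grb10, Peg3, Peg10, Mest, Plagl1, Ndn and Impact. They were chosen by name as imprinted genes present on the array, with earlier results of these data known. They are 9 of the 27962 gene names on the array, and 9 of the 23349 with a tested probe. The array file lists 15 probes under these names, and 14 of them were measured well enough to be tested. RNA of whole testicular cells from mice was hybridised to 8 Agilent one-colour arrays. Arrays 1 to 4 of each genotype came from wild type (VRK1+/+) and mutant (VRK1-/-) males, and the labels call them biological replicates. Vrk1 encodes a nuclear serine/threonine kinase needed for fertility. The labels give no age, strain or construction of the mutant allele, and do not say whether a replicate was 1 animal or a pool, so p-values measure the spread between these samples.

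Imprints are set in the parents' germ lines as DNA methylation at control regions, and most imprinted genes lie in clusters that share such a region. In the male germ line the old marks are erased and the paternal pattern is laid down, with methylation at the H19 control region as the classic paternal mark. H19, Cdkn1c and, in most tissues, Grb10 are expressed from the maternal copy; Peg3, Peg10, Mest, Plagl1, Ndn and Impact are expressed from the paternal copy. The probes measure total transcript and do not distinguish the parental copies.

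The following sequences are shown because the results below turn on them. Both H19 probes target the same long non-coding RNA and gave different results. Both lie on chromosome 7 in the mm7 coordinates of the array file, at chr7:139003144-139003203 and chr7:139003393-139003540. The latter is a 60-base probe whose coordinates span 148 bases, so it skips 88 genomic bases between its ends. The Peg3 and Grb10 probes below gave calls that differ in size or threshold from another probe of the same gene. The Peg3 probe lies at chr7:6266913-6266972. The Grb10 probe spans 649 bases at chr11:11885585-11886233 and skips 589 of them. All 4 are printed 5′ to 3′ as in the array file, in lower case throughout.
H19 probe A_51_P142196: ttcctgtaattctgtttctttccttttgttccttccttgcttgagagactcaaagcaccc
H19 probe A_52_P571350: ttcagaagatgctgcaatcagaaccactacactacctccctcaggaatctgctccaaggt
Peg3 probe A_51_P206037: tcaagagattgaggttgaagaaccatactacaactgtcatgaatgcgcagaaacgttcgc
Grb10 probe A_51_P187151: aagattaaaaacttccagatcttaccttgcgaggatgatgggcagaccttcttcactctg

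Promoter sequences of RefSeq on GRCm38.p6 were looked up for every member but Impact. They matched 5 members, Peg3, Mest, Plagl1, Ndn and Grb10, with 8 start sites between them. Peg3 and its neighbour Usp29 are read in opposite directions from a shared promoter: their 300-base windows, on the minus and plus strands, overlap by 263 bases. The 250 bases before the Peg3 start, at chr7:6730420-6730669 on the minus strand, are printed with CpG dinucleotides, the sites of methylation, in capitals.
Peg3 upstream: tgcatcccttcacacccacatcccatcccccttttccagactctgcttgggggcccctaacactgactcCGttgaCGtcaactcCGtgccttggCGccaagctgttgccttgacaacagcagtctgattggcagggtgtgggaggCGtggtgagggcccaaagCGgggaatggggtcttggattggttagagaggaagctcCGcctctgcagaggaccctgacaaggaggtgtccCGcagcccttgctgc
The 250 bases before the second listed Mest start, at chr6:30737800-30738049 on the plus strand, are printed with TGCCGC, the core motif bound by the imprint-protecting factor ZFP57, and its reverse GCGGCA in capitals.
Mest upstream: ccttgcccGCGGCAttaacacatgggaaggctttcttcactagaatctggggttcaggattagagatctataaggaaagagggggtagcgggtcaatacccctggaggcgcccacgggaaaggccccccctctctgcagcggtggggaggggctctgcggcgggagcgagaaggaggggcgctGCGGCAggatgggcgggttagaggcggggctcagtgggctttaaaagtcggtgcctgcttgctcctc
This stretch holds the motif 2 times. A Mest window starting 3 bases further on holds the same copies. By gene, Mest, Plagl1 and Grb10 have a window with the motif on either strand and Peg3 and Ndn do not; 11.6% of the 32851 RefSeq promoter windows hold it. Each window of these 5 members holds 8 to 45 CpG sites, against a median of 7 over all windows, and the motif itself contains a CpG. A match is a description of these letters; methylation and ZFP57 binding were not measured.

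The targeted gene was lower in every mutant array. Vrk1 probe A_51_P102339 was -0.71 ± 0.16 (SD, n = 4) in wild type and -2.97 ± 0.19 in mutants, in log2 units relative to each array's 75th percentile, the scale of every level below. The difference of -2.26 had a standard error of 0.15 (adjusted p = 0.000165), and the other Vrk1 probe gave -2.06. The 4 wild-type arrays shared a slide and a scan and the 4 mutant arrays shared others, so genotype and slide cannot be told apart. Mutant arrays were brighter, with 83.3% to 86.4% of probes well above background against 73.2% to 77.5% in wild type. Markers of haploid spermatids had a mean level of 5.78 to 6.54 on every array. Mutant arrays 1 and 4 stood apart: the mean of 3 epididymis markers was 3.18 and 2.56 there, -1.26 and -2.12 on mutant arrays 2 and 3, and -3.90 to -3.08 in wild type. Each member's difference is therefore also given without mutant arrays 1 and 4.

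Of the 9 imprinted genes, 5 were higher in the mutant, none was lower, and 4 did not pass an adjusted p of 0.05 (limma), each gene read from its brightest passing probe. H19, Peg3, Peg10, Mest and Impact were higher, by 1.51-fold to 4.38-fold. Cdkn1c, Grb10, Plagl1 and Ndn did not pass. Over all gene names 21.7% of such probes were called higher and 12.4% lower. Among those with a mean level from -4 to 1, a band that holds 8 of the 9 members and was chosen after the data were seen, 23.1% were called higher and 8.21% lower. The median difference of the 9 members was 0.64, against 0.03 over all gene names. As the members were chosen with earlier results of these data known, such comparisons describe them and are no independent test. Over all 33716 probes, 21.2% were called higher and 10.8% lower, while 7 of the 14 member probes were called higher and 1 lower. In 6 members every mutant array lay above every wild-type array, where 21.9% of gene names did so. Without mutant arrays 1 and 4 the median of the members was 0.63, and only Impact passed. In that fit 1318 probes in all were called higher and 220 lower, and each group difference rests on 2 mutant arrays.

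**Figure D1:**
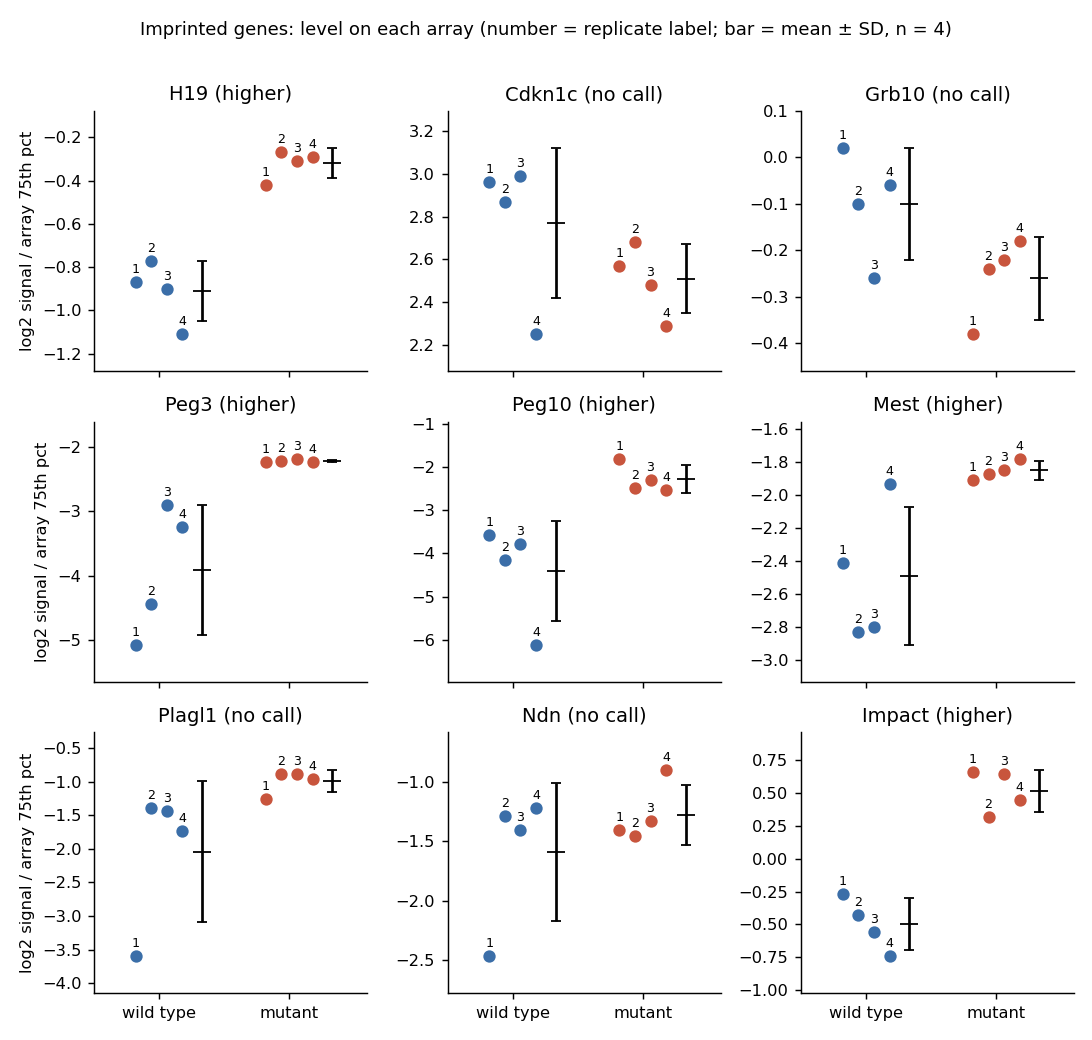
Level of the brightest passing probe of each imprinted gene on every array, in log2 units on the percentile scale, with the replicate label beside each point and the mean ± SD (n = 4) to its right. Mutant points lie above all wild-type points for H19, Peg3, Peg10, Mest, Plagl1 and Impact, by 0.02 for Mest and 1.06 for Peg10; the vertical axes differ between panels.

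Impact, a regulator of translation that binds Gcn1 and restrains the stress kinase Gcn2, had the smallest adjusted p of the members' brightest probes. Its levels were -0.27, -0.43, -0.56 and -0.74 on wild-type arrays 1 to 4 and 0.66, 0.32, 0.65 and 0.45 on mutant arrays 1 to 4. The lowest mutant array was 0.59 above the highest wild-type array. The difference was 1.02 (SE 0.15, adjusted p = 0.00234), a 2.03-fold rise. It was 0.99 (adjusted p = 0.0411) without mutant arrays 1 and 4. Leaving out any 1 array gave 0.94 to 1.10, called each time. Of its partners, Eif2ak4, which encodes Gcn2, rose by 0.60 (SE 0.13, adjusted p = 0.00977), and its dimmer probe by 0.74. Gcn1, the ribosome-bound activator of Gcn2, fell by 0.68 (adjusted p = 0.0435) at its brightest probe. Its other probes gave -0.83 and -0.12 without passing. Atf4, the transcription factor induced through Gcn2, was at -0.11 in both genotypes, with an interval of the difference from -0.29 to 0.29. That is the level of Atf4 mRNA, and the protein was not measured.

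H19 is a maternally expressed long non-coding RNA that shares an imprinting control region with Igf2. At the brighter probe, wild-type levels were -0.87, -0.77, -0.90 and -1.11, and mutant levels were -0.42, -0.27, -0.31 and -0.29. No mutant array overlapped the wild-type range, and the difference was 0.59 (SE 0.13, adjusted p = 0.00957). The probe that skips 88 bases read -2.00, -2.18, -2.21 and -2.23 in wild type and -2.19, -1.97, -2.12 and -2.17 in mutants. Its groups overlapped, and its difference of 0.04 (95% interval -0.24 to 0.32) turned negative under array-median, quantile, loess and normexp settings, the lowest being -0.18, and was -0.01 without mutant array 2. So the probes of H19 disagreed, and the rise rests on the brighter probe. That probe gave 0.63 (adjusted p = 0.0669) without mutant arrays 1 and 4.

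Igf2, the paternally expressed growth factor of the H19 cluster, was called higher at both probes, by 0.76 (SE 0.20, adjusted p = 0.0202) and 0.96 (SE 0.19, adjusted p = 0.00718). Its brighter probe read -0.59, -1.14, -1.30 and -0.89 in wild type and 0.09, -0.53, -0.41 and -0.04 in mutants, with no overlap. Mutant arrays 1 and 4 were the highest. The brighter probe passed in 4 of the 8 fits that left out 1 array, and without mutant arrays 1 and 4 the difference was 0.51 (adjusted p = 0.177). Ins2, an insulin gene next to Igf2, differed by 0.31 and did not pass. H19 and Igf2, which are expressed from opposite parental copies, were thus both called higher at their brightest probes.

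Cdkn1c encodes a maternally expressed inhibitor of cyclin-dependent kinases. Wild-type levels were 2.96, 2.87, 2.99 and 2.25, and mutant levels were 2.57, 2.68, 2.48 and 2.29. Wild-type array 4 lay below every mutant array while the other wild-type arrays lay above them all. The difference of -0.26 (95% interval -0.68 to 0.16) did not pass; without wild-type array 4 it was -0.43 (adjusted p = 0.0408), and without mutant arrays 1 and 4 it was -0.19 (adjusted p = 0.623). Of its 7 measured neighbours in the Kcnq1 cluster, 1 was called lower and 6 did not pass, with a median of -0.02. The lower gene was Slc22a18, a maternally expressed membrane transporter, at -0.62 (adjusted p = 0.0145); its dimmer probe gave -0.04. Phlda2, a maternally expressed growth-restraining gene, differed by 0.03 at its brightest probe. A dimmer Phlda2 probe, measured on 1 of 4 wild-type arrays, was 1.14 higher, with differences from -0.25 to 1.3 over the settings tried. Kcnq1 gave 0.24, Ascl2 -0.21, Osbpl5 0.52 and Tssc4 -0.02, none of them passing. Kcnq1ot1, the paternal antisense RNA of this cluster, differed by -0.24 without passing. Among relatives of Cdkn1c, Cdkn1a rose by 0.62 (adjusted p = 0.0150), and Cdkn1b gave 1.06 (adjusted p = 0.0521) and 1.12 (adjusted p = 0.00431) at its probes.

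Grb10 encodes an adaptor that binds and restrains the insulin and insulin-like growth factor receptors. Its brightest probe read 0.02, -0.10, -0.26 and -0.06 in wild type and -0.38, -0.24, -0.22 and -0.18 in mutants. The groups overlapped and the difference of -0.16 (95% interval -0.44 to 0.12) did not pass. The probe spanning 649 bases read -1.47, -1.48, -1.37 and -1.52 in wild type and -1.78, -2.01, -2.16 and -1.76 in mutants. It fell by 0.47 (SE 0.14, adjusted p = 0.0290), with no overlap, and passed in 4 of the 8 fits that left out 1 array. With mutant arrays 1 and 4 left out, these probes gave -0.13 (adjusted p = 0.570) and -0.63 (adjusted p = 0.0564). The dimmest probe, above background on 2 of 4 wild-type arrays, gave 0.15 and changed sign with the scaling, down to -0.44. Of the receptors, Igf1r rose by 1.02 (adjusted p = 0.00258) at the brighter probe the array file lists under its name. A still brighter probe listed as A330103N21Rik, an older clone name of Igf1r in RefSeq's synonyms, rose by 0.94 (adjusted p = 0.0132). The dimmer probe under the Igf1r name gave 1.36 (adjusted p = 0.0672) without passing. An Igf1r probe listed as D930020L01 gave 0.17 (adjusted p = 0.409). Insr gave -0.11 without passing at the probe of its own name, and 0.82 (adjusted p = 0.0262) at a probe listed as D630014A15Rik, tied to Insr by synonym only. The related adaptor Grb14 rose by 0.72 (adjusted p = 0.0318).

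**Figure D2:**
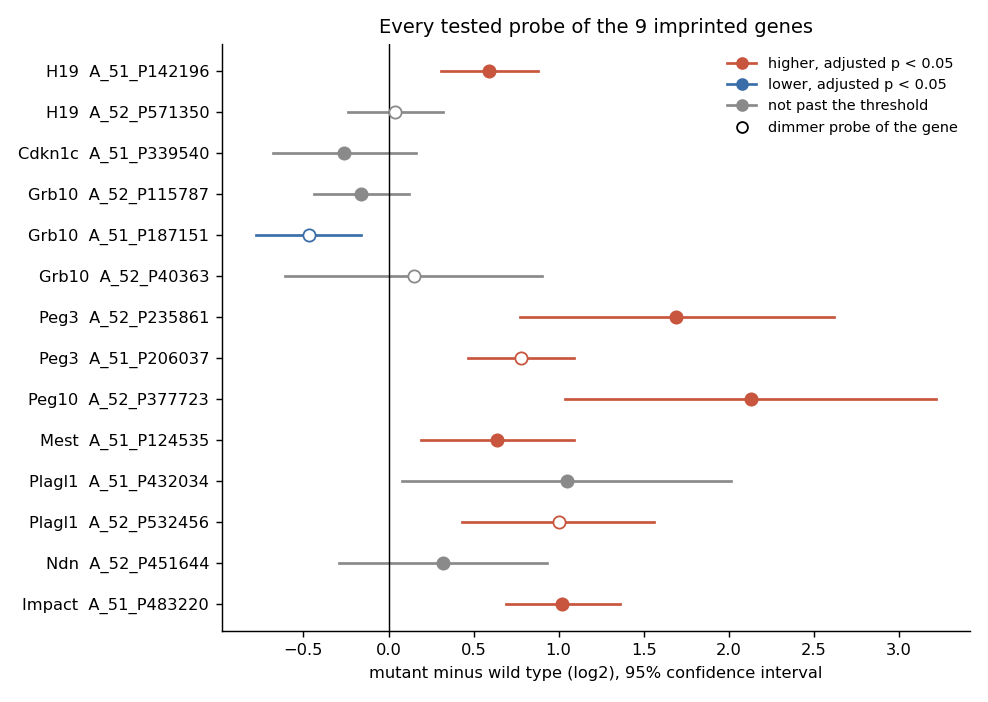
Mutant minus wild type in log2 units for the 14 tested probes of the 9 imprinted genes, with 95% confidence intervals; filled points are each gene's brightest probe and open points its dimmer probes. The probes of H19, Plagl1 and Grb10 fall on different sides of the threshold within a gene, and those of Peg3 differ in size, 1.69 against 0.78.

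Peg3 encodes a large zinc finger protein expressed from the paternal copy. Its brightest probe, at chr7:6265247-6265306, read -5.07, -4.43, -2.90 and -3.25 in wild type and -2.24, -2.22, -2.19 and -2.24 in mutants. The wild-type arrays differed widely, with an SD of 1.01, while the mutant arrays lay together, with an SD of 0.02. The difference was 1.69 (SE 0.41, adjusted p = 0.0154). The probe printed above read -4.49, -4.62, -4.40 and -4.73 against -3.67, -3.92, -3.65 and -3.88, a rise of 0.78 (SE 0.14, adjusted p = 0.00458). That smaller rise was -0.02 after normexp background correction and 0.41, without passing, after quantile or loess normalization. The remaining Peg3 probe of the array file, from an unclassified cDNA clone, was not above background on any array and was not tested. Without mutant arrays 1 and 4 the brighter probe gave 1.71 (adjusted p = 0.119) and the dimmer 0.77 (adjusted p = 0.0528).

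Usp29, which encodes a paternally expressed ubiquitin protease and shares the Peg3 promoter printed above, was higher by 2.03 (SE 0.20, adjusted p = 0.000431), or 4.07-fold. It read -4.44, -3.98, -4.47 and -4.89 in wild type and -2.64, -2.24, -2.43 and -2.36 in mutants, with no overlap. The difference was 2.11 (adjusted p = 0.0149) without mutant arrays 1 and 4. After normexp correction it was 0.58 (adjusted p = 0.0585).

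Peg10 derives from a retrotransposon and is expressed from the paternal copy. Wild-type levels were -3.58, -4.15, -3.78 and -6.12, the last being the floor of the scale, and mutant levels were -1.81, -2.48, -2.29 and -2.52. The probe was above background on 3 of 4 wild-type arrays and all 4 mutant arrays. Every mutant array was higher than every wild-type array, by at least 1.06. The difference of 2.13 (SE 0.49, adjusted p = 0.0120), or 4.38-fold, was 1.56 (adjusted p = 0.00322) without wild-type array 4. It was 0.90 (adjusted p = 0.0458) after normexp correction and 2.02 (adjusted p = 0.113) without mutant arrays 1 and 4. Of 5 measured neighbours, 2 were higher, 1 was lower and 2 did not pass. Sgce, a sarcoglycan read from the same paternal copy, rose by 0.48 (adjusted p = 0.0299) and passed in 3 of the 8 fits that left out 1 array; its dimmer probe gave 0.53 without passing. Ppp1r9a, a maternally expressed actin-binding protein, rose by 1.04 (SE 0.25, adjusted p = 0.0151), and its 4 dimmer tested probes were called higher too. Over the settings tried, the lowest differences of these 4 probes lay between -0.28 and 0.12. The dimmest of them was above background on no wild-type array, and a further Ppp1r9a probe was too dim to be tested. Calcr, measured on 3 of 4 wild-type arrays, gave 1.18 (adjusted p = 0.0684) and Pon3 0.82 (adjusted p = 0.0512) at their brightest probes; a dimmer Pon3 probe rose by 0.88 (adjusted p = 0.0493). Asb4, a maternally expressed ubiquitin ligase adaptor, fell by 0.95 (SE 0.17, adjusted p = 0.00506), and its dimmer probe by 0.74. Its brightest probe read 2.46, 3.15, 3.08 and 2.82 in wild type and 1.80, 1.93, 2.06 and 1.93 in mutants.

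Mest encodes a paternally expressed enzyme of the hydrolase fold. It read -2.41, -2.83, -2.80 and -1.93 in wild type and -1.91, -1.87, -1.85 and -1.78 in mutants. Wild-type array 4 was 0.02 below the lowest mutant array. The difference was 0.64 (SE 0.20, adjusted p = 0.0371), and it passed in 2 of the 8 fits that left out 1 array. It did not pass after array-median, quantile, loess or spike-in scaling, which gave 0.42 to 0.59, after normexp correction, at 0.34, or without mutant arrays 1 and 4, at 0.63 (adjusted p = 0.181). Klf14, a maternally expressed transcription factor of the Mest cluster, was 0.76 higher (adjusted p = 0.00728). It was above background on 2 of 4 wild-type arrays, and normexp correction turned the difference to -0.40.

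Plagl1 encodes a paternally expressed zinc finger transcription factor that slows the cell cycle. Its brightest probe read -3.59, -1.39, -1.43 and -1.73 in wild type and -1.25, -0.88, -0.88 and -0.96 in mutants. Wild-type array 1 lay far below the other 3, and the difference of 1.05 (SE 0.43, adjusted p = 0.0872) did not pass. Without wild-type array 1 it was 0.53 (adjusted p = 0.0345), and without mutant arrays 1 and 4 it was 1.16 (adjusted p = 0.248). The dimmer probe read -3.11, -2.26, -2.37 and -2.19 against -1.14, -1.96, -1.65 and -1.19, a rise of 1.00 (SE 0.25, adjusted p = 0.0172). That probe gave 0.88 (adjusted p = 0.0513) without mutant array 1 and 0.68 (adjusted p = 0.168) without mutant arrays 1 and 4.

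Ndn encodes necdin, a paternally expressed protein of the MAGE family that restrains growth. It read -2.46, -1.29, -1.41 and -1.22 in wild type and -1.41, -1.46, -1.33 and -0.90 in mutants. Wild-type array 1 was again the lowest, and the remaining arrays of both genotypes overlapped. The difference of 0.32 (95% interval -0.29 to 0.93) did not pass, and without wild-type array 1 it was 0.03; without mutant arrays 1 and 4 it was 0.20 (adjusted p = 0.730). Of 6 measured neighbours, Magel2 was called higher, Peg12 lower, and 4 did not pass. Magel2, another paternal MAGE gene, rose by 0.84 (adjusted p = 0.0254), and wild-type array 1 at -2.54 was its lowest. Without that array Magel2 rose by 0.58 (adjusted p = 0.0152), and 4 of the 8 fits without 1 array called it. Peg12, a paternally expressed Frat family gene, fell by 0.73 (SE 0.14, adjusted p = 0.00690). Snrpn gave -0.01, Mkrn3 0.53 and Atp10a -0.33, none of them passing. Ube3a, a ubiquitin ligase imprinted in neurons, gave -0.26 at its brightest probe without passing, and -0.73 (adjusted p = 0.00384) and -0.50 (adjusted p = 0.0212) at the others. The non-imprinted MAGE relatives Maged1, Maged2 and Mageh1 rose by 0.86, 0.93 and 1.13.

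**Figure D3:**
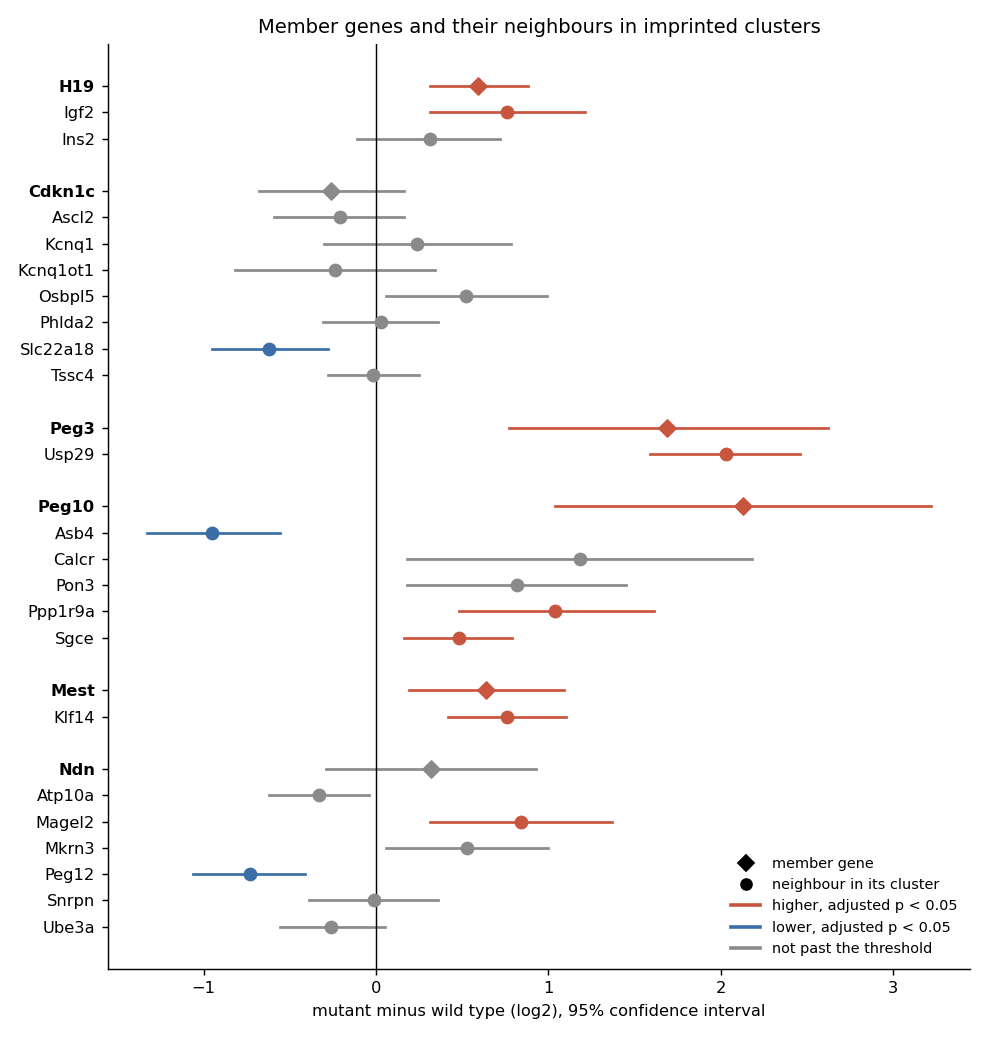
Mutant minus wild type in log2 units for 6 imprinted genes (diamonds, bold names) and their 22 measured cluster neighbours (circles), read from the brightest probe of each, with 95% confidence intervals. Peg3 and Usp29 were higher by 1.69 and 2.03, while the Peg10 cluster holds both the 2.13 rise of Peg10 and the fall of Asb4 by 0.95; Klf14 changes sign after normexp correction.

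Over the 22 neighbours, 6 were called higher, 3 lower and 13 did not pass; 3 were higher without mutant array 4. Over all gene names 21.7% were called higher and 12.4% lower, the shares against which these counts are read. A wider list of 40 measured imprinted genes outside the 9 members had 10 higher, 5 lower and 25 without a call, with a median of 0.27. Its counts lie close to those shares. Leaving out 1 array gave 6 higher (without mutant array 3) to 12, and 3 (without wild-type array 2 or 3 or mutant array 1 or 4) to 7 lower. That median was 0.05 under array-median scaling and -0.14 after normexp correction. The 19 paternally expressed genes had 6 higher, 1 lower and a median of 0.44; 3 were higher without wild-type array 3, mutant array 3 or mutant array 4, and 3 were lower without wild-type array 4. The 21 maternally expressed genes had 4 higher, 4 lower and a median of 0.24; with 1 array left out 3 to 7 (without mutant array 2) were higher, and 2 (without wild-type array 2 or 3 or mutant array 1 or 4) to 4 lower. Both of these medians turned negative after normexp correction, to -0.22 and -0.10. Beyond the neighbours named, Dio3, which encodes a thyroid hormone deiodinase, was 2.16-fold higher as measured (adjusted p = 0.00288). No wild-type array measured Dio3 above background, and after normexp correction the difference was -0.22. Zrsr1, a paternal splicing factor gene, rose by 0.59. Gatm and Slc22a2, an enzyme of creatine synthesis and a cation transporter, were 0.95 and 0.80 higher. Slc22a2 was above background on 2 of 4 wild-type arrays. Its difference was 0.35, without passing, after quantile or loess normalization and -0.28 after normexp correction. Commd1, a copper metabolism gene, fell by 0.55, and Kcnk9, read from a probe the array file names A930009L07Rik, by 0.64 (adjusted p = 0.0495). That Kcnk9 probe was above background on only 2 wild-type and 2 mutant arrays. Its groups overlapped, and mutant array 1 was at the floor of -6.12. Meg3, the maternal long non-coding RNA of the Dlk1 cluster, gave 1.43 (adjusted p = 0.0678) at its brightest probe. Of the remaining Meg3 probes, A_52_P391505 gave 1.36 (adjusted p = 0.0658), A_52_P99341 rose by 0.53 (adjusted p = 0.0153) and A_51_P109649 rose by 1.20 (adjusted p = 0.00166). Dlk1 itself gave 0.44 without passing.

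Among 9 measured genes that set or protect imprints, 2 were called higher and 2 lower. Over all gene names 21.7% were called higher and 12.4% lower, shares that also apply to the related genes below. Without mutant array 1 the counts of the 9 were 1 and 0, and 1 was lower without wild-type array 2 or mutant array 3 or 4. Dnmt3a, a de novo DNA methyltransferase of the germ line, rose by 0.60 at its brightest probe (adjusted p = 0.0196), while its dimmer probes gave 0.27 and 0.21 without passing. Kdm1b, a histone demethylase needed for imprints in oocytes, rose by 0.86 (adjusted p = 0.00628). Trim28, the corepressor that ZFP57 recruits, fell by 0.62 (adjusted p = 0.0313), and Uhrf1, which maintains methylation with Dnmt1, by 0.77 (adjusted p = 0.0187). Zfp57 was -0.52 (adjusted p = 0.0521). Of 17 interacting or related genes of the members, 7 were called higher and 2 lower, with a median of 0.31 that was -0.04 after normexp correction. Those called lower were Gcn1 and Trp53, the gene of the tumour suppressor p53, which fell by 0.54 (adjusted p = 0.0139) at its brightest probe and rose by 0.59 (adjusted p = 0.0412) at the other. With 1 array left out 1 or 2 partners were lower; 2 were lower only without wild-type array 1 or mutant array 4. Without mutant arrays 1 and 4, none of the machinery or partner genes was called, and 3 of the 40 other imprinted genes were called, all higher.

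The profiles of the members were compared with each other and with those of the other gene names. Likeness was measured as the root mean square difference between mean-centred log2 profiles over the 8 arrays, which share slides and brightness. No member had another member as its nearest gene name. With up to 23349 gene names ranked, this was likely whatever the likeness of the members. No typical distance between gene names was computed, so the distances do not rate that likeness. H19 was nearest to Slc26a3 and AK079778, at 0.038 and 0.045, and Impact to Defb36 and A930012O16Rik, at 0.062 and 0.068. Cdkn1c was nearest to Nupr1l and AK147274, at 0.035 and 0.058, and Grb10 to Enpp4 and Zkscan14, at 0.051 and 0.056. Peg3 was nearest to D430036J16Rik and NAP057296-1, at 0.113 and 0.133, and Peg10 to Rab7b and Apobec3, at 0.232 and 0.297. Mest was nearest to AK088988 and Tnfrsf26, at 0.103 and 0.110. Plagl1 was nearest to Olfr299 and ENSMUST00000067526, at 0.094 and 0.096, and Ndn to AK087246 and AK049591, at 0.056 and 0.066. The closest members were H19 and Impact, 0.265 apart, and Cdkn1c and Grb10, 0.280 apart.

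Mean levels of the Sertoli, Leydig, macrophage, spermatocyte and epididymis marker lists did not overlap between the genotypes. Those of the endothelial, stromal, spermatogonial, myoid and spermatid lists overlapped. Of 12 Sertoli cell markers, 11 were called higher, and their mean level ran from 0.33 to 0.59 in wild type and from 1.03 to 1.59 in mutants, or summed scaled signals of 63.1 to 96.8 and 137 to 210. Of 8 measured Leydig cell markers 4 were higher, with mean levels of 1.15 to 1.82 and 2.02 to 2.73 and summed signals of 76.3 to 134 and 147 to 245. Only 1 Leydig marker passed without wild-type array 2 or 3 or mutant array 1 or 3, and 2 without mutant array 4. Of 8 macrophage markers 5 were higher, with means of 0.02 to 0.19 and 0.30 to 1.21. Their summed signals overlapped, at 41.1 to 86.2 and 46.1 to 88.0. Aif1, which had no call at -0.35, weighs most in the macrophage sums, with a mean level of 5.72. Sums without Aif1 were not computed, so the overlap does not describe the other macrophage markers. Only 1 macrophage marker passed without wild-type array 2 or mutant array 4, and 2 without wild-type array 3 or mutant array 1 or 3. Of 7 spermatocyte markers 4 were lower, with means of 3.86 to 4.00 and 3.18 to 3.74; without mutant array 1, 2 were lower, under quantile normalization 1 was lower, and under loess 1 was lower and 1 higher. Endothelial and stromal lists each had 2 of 6 genes higher, the spermatogonial list 2 of 7, and none was lower. The 6 myoid markers had none called, and 1 of 7 spermatid markers was lower. Shares of 21.7% called higher and 12.4% called lower over all gene names apply to the counts of every marker list here. With 1 array left out the stromal list had 2 to 4 higher (4 without wild-type array 4), the endothelial list 1 in all but the fit without wild-type array 4, and the spermatid list 3 lower without wild-type array 4, 1 without mutant array 2 and 0 otherwise. All 3 measured epididymis markers, Crisp1, Spink8 and Cd52, were higher, and 4 others were above background on too few arrays to be tested. Without wild-type array 2 or 3 or mutant array 1 or 4, 1 epididymis marker passed. Without mutant arrays 1 and 4, 2 Sertoli markers were called higher and the Sertoli median was 0.78. Over the 9 members the mean level was -1.70 to -1.23 in wild type and -0.71 to -0.66 in mutants, with mutant arrays 1 and 4 inside the range of the other mutants. Their summed scaled signals, in which the brightest probes weigh most, overlapped, at 7.9 to 11.1 and 9.7 to 10.9. Cdkn1c, which had no call, weighs most in these sums, with a mean level of 2.64 against 0.01 for Impact, the next brightest member. In whole-tissue RNA, fewer cells of a type and less RNA per cell cannot be told apart. The part of cell composition in the members' differences was not tested.

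**Figure D4:**
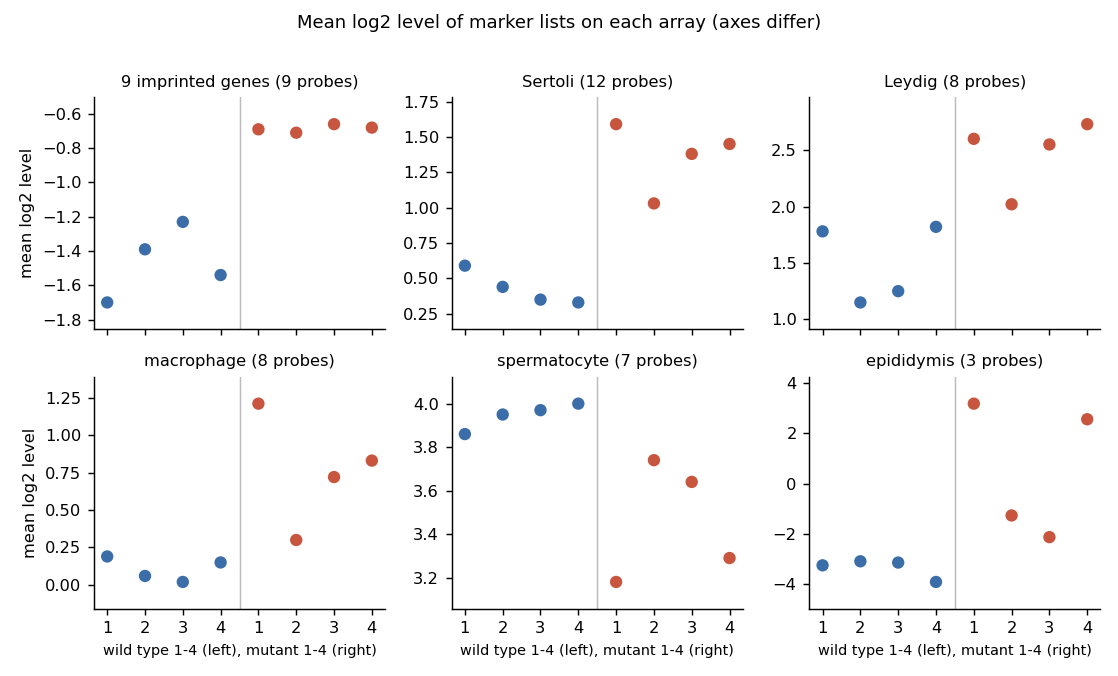
Mean log2 level over the 9 imprinted genes and over marker lists for Sertoli cells, Leydig cells, macrophages, spermatocytes and epididymis on wild-type arrays 1 to 4 and mutant arrays 1 to 4; vertical axes differ. The imprinted genes lie between -0.71 and -0.66 on all 4 mutant arrays, while the epididymis list reaches 3.18 and 2.56 on mutant arrays 1 and 4 alone.

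Another scaling of the arrays shifted the median of all probes. That median was 0.05 as reported, -0.17 after scaling to the array median and -0.23 after normexp correction. Of all calls, 66.2% were higher as reported, 33.9% under array-median scaling, 40.3% after normexp correction and 55.8% with array weights. The median of the 9 members stayed between 0.42 and 0.64 under array-median, quantile, loess, spike-in and normexp settings, and was 0.66 with array weights. Relative to the median of all probes, H19 was 0.54 as reported and 0.55 under array-median scaling, and Impact 0.97 under both. Normexp correction moved the genes unequally: on the same relative scale Peg10 went from 2.08 to 1.13 and Impact from 0.97 to 1.14. H19, Peg3, Peg10 and Impact were called higher under all 5 other scalings or corrections. The loss of Mest was common to these 5. Grb10 passed as lower under array-median scaling alone, at -0.37 (adjusted p = 0.0446), and Plagl1 passed as higher after normexp correction alone, at 0.63 (adjusted p = 0.0410).

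**Figure D5:**
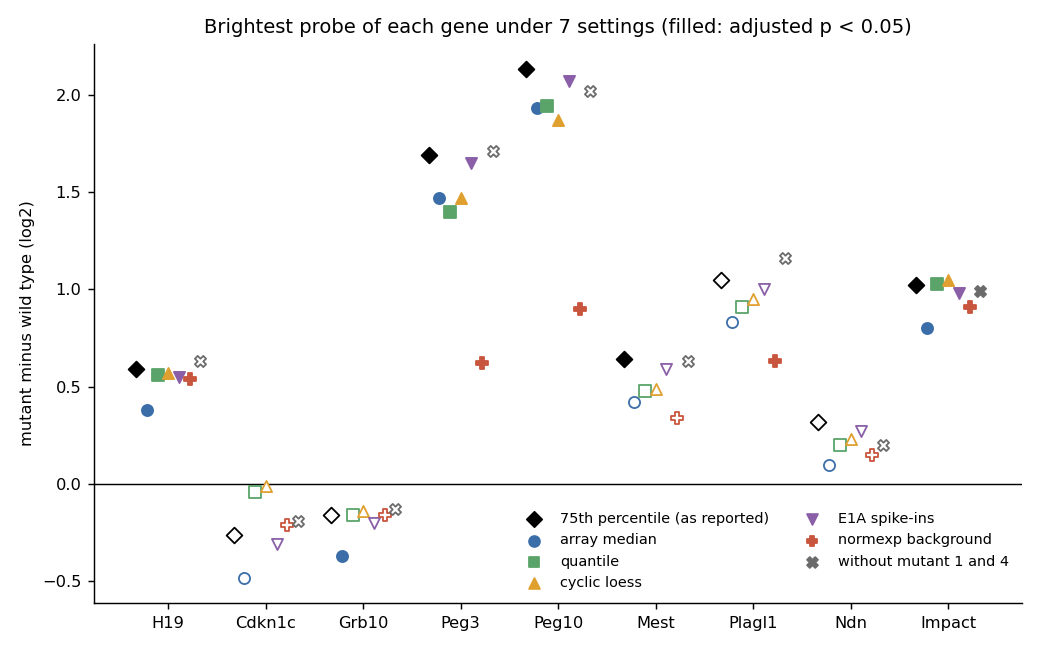
Mutant minus wild type in log2 units for the brightest probe of each imprinted gene under 7 settings; filled symbols have an adjusted p below 0.05. H19, Peg3, Peg10 and Impact are filled under each setting with all 8 arrays, while without mutant arrays 1 and 4 only Impact, at 0.99, is filled.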

How the data were processed

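The deposited intensity values are each spot's processed signal, background-subtracted and spatially detrended within the array per the file headers, with no scaling between arrays. The scanner software was Agilent Feature Extraction 9.5.3.1, per the submitters' processing notes. The deposited value table held these same values for all 45018 features. Flags deposited with each spot, in a unit of their own, marked outliers and spots well above background.

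Signals were expressed relative to the 75th percentile of the array's non-control spots, values below 0.01437 were set to that floor, and log2 was taken. The floor was added to the design because signals could be negative. Outlier spots were left out and spots of a probe averaged. Probes above background on at least 4 of 8 arrays were kept. limma 3.58.1 in R 4.3.3 (lmFit, eBayes, Benjamini-Hochberg over 33716 probes, threshold 0.05) compared 4 mutant with 4 wild-type arrays; the script was tested on simulated data. Array correlations were 0.966 to 0.995 within and 0.953 to 0.984 between genotypes; no feature was saturated, and the number of arrays limits the precision. A gene was read from its passing probe with the highest mean level.

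All members and their probes are named, with cluster neighbours whatever their result, genes of the imprinted, machinery and partner lists that passed, Vrk1, and the 2 gene names nearest each member. Members and lists were chosen with earlier results of these data known. Gene names come from the array file, updated through RefSeq accessions for 22951 probes and, for other names not current there, through synonyms in the RefSeq gene table. Alternatives were array-median, quantile, loess, spike-in and normexp settings, filters, a lower floor, a replicate block, array weights, 1 probe per gene and leaving out arrays.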

Additional observations from a re-analysis of the deposited data

Results flagged for a closer look

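Among the 28 groups of 4 arrays formed by the 14 tested member probes and the genotypes, 3 held an array whose gap to its nearest neighbour was beyond Dixon's 95% critical value; chance gives about 1 in 20 groups. Cdkn1c on wild-type array 4 was 2.25, with a gap of 0.838 of the group's range. The brighter Plagl1 probe on wild-type array 1 was -3.59, with a gap of 0.848. Ndn on the same array was -2.46, with a gap of 0.845. Wild-type array 1 was also lowest for the dimmer Plagl1 probe, at -3.11, and for the brightest Peg3 probe, at -5.07, neither beyond that value. Magel2, a neighbour of Ndn that was not checked this way, was lowest there too, at -2.54.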

How the results depend on the processing

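Beside the values in the report, the counts of all probes moved most. Probes called higher were 7159 as reported, 4489 with array-median scaling, 4405 with quantile normalization, 4520 with loess, 2092 with normexp correction and 1318 without mutant arrays 1 and 4. Probes called lower were 3655 as reported, 8768 with array-median scaling, 7599 with array weights, 220 without mutant arrays 1 and 4, and 1666 to 4411 with 1 array left out. Member genes called higher fell from 5 to 1 without mutant arrays 1 and 4. Member genes called lower rose from 0 to 1 with array-median scaling (Grb10) and with array weights (Cdkn1c), and were 0 to 1 with 1 array left out. The dimmest Grb10 probe changed sign from 0.15 to -0.04 with array weights, -0.26 with loess, -0.07 with array-median scaling, -0.44 with normexp, -0.28 with quantile, -0.34 without mutant arrays 1 and 4, and -0.19 to 0.33 with 1 array left out. The dimmer H19 probe changed from 0.04 to -0.10 with loess, -0.18 with array-median scaling, -0.08 with normexp, -0.11 with quantile, and -0.01 to 0.09 with 1 array left out. Normexp correction, which adds an offset of 50 before the log2 step, turned the dimmer Peg3 probe to -0.02, Dio3 to -0.22, Slc22a2 to -0.28 and Klf14 to -0.40. The cause of these and of the other reversals was not tested. Same-numbered arrays correlated at 0.279, 0.235, 0.09 and 0.609 in their deviations, and 3 of 4 matched their own number best, a hint of pairing from the data and not from the design. As number 3 reached only 0.09, the numbers were not taken as pairs. With the replicate block 9241 probes were higher and 5913 lower, and 6 members higher with Plagl1 added (adjusted p = 0.0235). Without a filter, probes near background enter, and 4 members were called higher. Over the 14 member probes and all alternatives, 243 values kept their direction and their side of the threshold, 27 kept the direction but no longer passed, 6 newly passed and 13 changed sign. For the other genes named as called, 476 were unchanged in this sense, 107 no longer passed and 3 changed sign. Among these, Kcnk9 passed in 1 of the 8 fits without 1 array, Gcn1 and Grb14 in 2, and Commd1, Trim28 and Zrsr1 in 4.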
